A study of Mus musculus with 2 samples.

Results

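The genes described here are the 4 Notch receptors of the mouse (Notch1, Notch2, Notch3 and Notch4), 4 of their ligands (Dll1, Dll4, Jag1 and Jag2) and the target genes Hey1 and Heyl. They were found on the arrays by the RefSeq transcript that each probe carries: all 10 were present, with 12 probes, among 20884 genes that could be named. Their values were compared between SPAD, which are small proliferative adipocytes after differentiation, and SVCD, which are stromal vascular cells (viscular in the sample title) after the same differentiation. Both came from epididymal fat of male C57/BL mice, digested with collagenase. Small proliferative adipocytes are the cells that sedimented when the floating fraction was spun again, whereas stromal vascular cells were taken from below the floating layer after an initial spin. Each population was cultured in DMEM to 90% confluency, incubated for 3 days with insulin, dexamethasone and IBMX, a mixture that induces fat cell differentiation, and kept for a further 2 days in DMEM. The age of the mice and the number of animals or cultures behind each RNA are not given in the sources used here. RNA of each population was hybridised to 1 single-colour Agilent array, so the differences have no replicate check and were not tested. The protocol names no sort by surface markers. In RNA of mixed cells a lower share of a cell type and less RNA per cell cannot be told apart.

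Notch receptors are membrane proteins that are cut when a Delta or Jagged ligand on a neighbouring cell binds them. The freed intracellular part enters the nucleus, joins the DNA-binding protein Rbpj and its Mastermind coactivators, and turns on genes of the Hes and Hey families, which encode transcriptional repressors. In blood vessels, Notch1, Notch4 and Dll4 are known from endothelial cells and Notch3 from pericytes and smooth muscle. In mouse white fat, Notch signalling is known to restrain thermogenic gene expression.

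The promoters of the genes on which the comparison turns are printed here, because Notch target genes are commonly read for Rbpj sites and because Hes and Hey proteins bind sites of their own. RefSeq windows (build GRCm38.p6) were matched by symbol for 8 of the 10 genes, with 9 windows in all since Dll1 has 2. The target genes Hey1 and Heyl had no window, so all windows are those of receptors and ligands. Each sequence gives the 250 bases before the annotated start, 5′ to 3′ on the strand of the gene. Capitals mark matches on either strand to any of 7 motifs: TGGGAA, which is the core of an Rbpj site, CACGTG as well as the sequence CACGCG, which Hes and Hey proteins bind, TGANTCA of the AP-1 factors, GGGCGG, which is the GC box of Sp1, CAGGAA, which holds the core of Ets sites, and TATAAA, the TATA box. No match of different motifs overlapped in the 4 windows shown.
Notch1 (chr2:26503823-26504072, minus strand): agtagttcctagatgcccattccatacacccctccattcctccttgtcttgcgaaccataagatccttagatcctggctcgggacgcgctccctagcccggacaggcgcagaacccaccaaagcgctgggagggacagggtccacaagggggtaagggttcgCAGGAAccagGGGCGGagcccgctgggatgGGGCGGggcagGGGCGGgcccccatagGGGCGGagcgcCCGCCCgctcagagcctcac
Notch4 (chr17:34564045-34564294, plus strand): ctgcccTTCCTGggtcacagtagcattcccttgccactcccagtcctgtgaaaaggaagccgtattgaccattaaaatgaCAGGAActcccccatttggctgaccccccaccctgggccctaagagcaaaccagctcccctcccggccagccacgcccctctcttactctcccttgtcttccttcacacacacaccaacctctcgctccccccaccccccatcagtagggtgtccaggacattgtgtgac
Dll4 (chr2:119325534-119325783, plus strand): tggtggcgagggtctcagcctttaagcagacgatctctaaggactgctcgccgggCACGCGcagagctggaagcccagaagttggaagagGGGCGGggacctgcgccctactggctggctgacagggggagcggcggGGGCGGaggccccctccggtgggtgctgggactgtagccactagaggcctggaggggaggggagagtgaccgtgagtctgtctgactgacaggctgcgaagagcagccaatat
Jag1 (chr2:137116521-137116770, minus strand): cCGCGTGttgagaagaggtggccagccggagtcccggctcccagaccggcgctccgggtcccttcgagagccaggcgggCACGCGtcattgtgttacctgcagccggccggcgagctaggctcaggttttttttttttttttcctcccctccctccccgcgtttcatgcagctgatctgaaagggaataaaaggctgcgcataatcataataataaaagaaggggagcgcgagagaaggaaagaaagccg
The Rbpj core TGGGAA was found in 0 of the 9 receptor and ligand windows, against 21.6% of all 32851 windows of this length. The E-box CACGTG was also found in 0 of 9, against 6.02%, and TATAAA was found in 0 of 9, against 12.4%. CACGCG was found in 4 of 9 windows (Notch2, Dll4, Jag1 and 1 of the Dll1 windows), against 7.62% of all windows. The GC box GGGCGG was found in 5 of 9, against 32.7%, CAGGAA in 2 of 9 (Notch1 and Notch4), against 25.7%, and TGANTCA in 1 of 9 (Dll1), against 6.75%. The windows of these genes were rich in G and C, from 56% to 87.2%, beside a median of 52.4% over all windows, and GC-rich motifs are more frequent in such sequence. A missing match says only that these letters do not occur in these windows.

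Signals are processed intensities of the spots in scanner units, each given with the error that the scanner software estimated for it. Log2 differences are SPAD minus SVCD after each array was scaled to its 75th percentile. The error that follows them combines the SD between repeat spots at that brightness on both arrays. Each SD was divided by the square root of the number of spots averaged, so the error is smaller for probes printed 10 times. That SD covers spot-to-spot variation only, and it was 0.34 in SPAD and 0.36 in SVCD for the dimmest of 6 signal bins and 0.05 and 0.06 for the brightest. A signal was counted as detected where the scanner software called it well above background. The 2 arrays lay on the same slide and were scanned together, 64.5% of probes were detected in SPAD and 65.6% in SVCD, and 0 non-control spots were saturated. Of these genes, 9 of 10 were detected on both arrays, and a dim probe of Notch1 and the probe of Dll1 were not.

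Among the 9 detected genes, those at least 2-fold higher in SPAD numbered 6 (Notch1, Notch3, Notch4, Dll4, Jag2 and Heyl). The share past this size was 16.3% among all 15626 named genes detected on at least 1 array. None of the 9 was at least 2-fold lower, beside 14.1% of all genes. The median log2 difference of the 9 genes was 2.11, with a range from -0.96 to 2.85, and that of all detected genes was 0.06. Jag1 and Hey1 were the 2 genes with a brighter signal in SVCD.

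When the arrays were scaled to 8 spike-in control probes instead, each log2 difference of a gene detected on both arrays was moved by -0.97. The median of all genes moved to -0.90. Under that scaling 5.64% of all genes exceeded 2-fold on the SPAD side and 44.8% on the SVCD side. Of the 9 genes, 6 then exceeded 2-fold on the SPAD side and 2, Jag1 and Hey1, on the SVCD side. The median of the 9 genes lay 2.05 above that of all genes with the 75th percentile. A shift shared by all genes cancels in this difference, whereas with normexp, another background correction, it was 0.95.

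**Figure D1:**
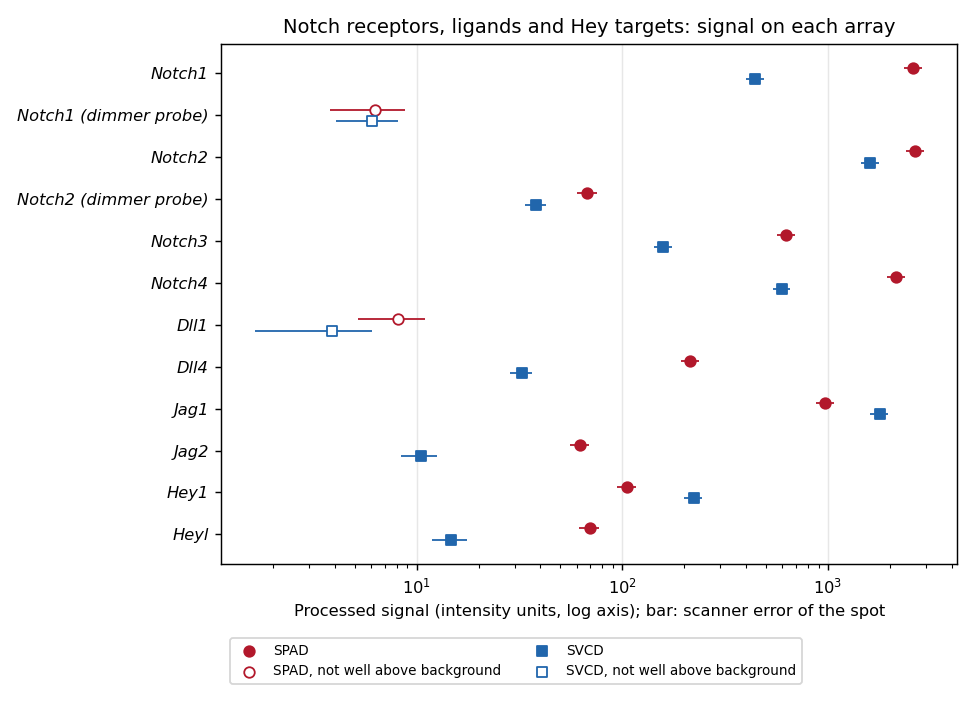
Processed signal of each probe (intensity units, log axis) in SPAD (circles) and SVCD (squares); bars are the scanner's error of the spot, and open symbols mark signals not well above background. Circles lie to the right of squares for the detected probes of Notch1 to Notch4, Dll4, Jag2 and Heyl, and to the left for Jag1 and Hey1.

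Notch1, the receptor that drives many of the known roles of the pathway in vessels, had a signal of 2603 ± 260.3 in SPAD, against 443 ± 44.3 in SVCD. The signals were far apart relative to the scanner error, a log2 difference of 2.68 ± 0.08 (6.42-fold higher in SPAD). Only 2.84% of all detected genes had a larger difference. A dimmer Notch1 probe of the same transcript read 6.29 ± 2.48 in SPAD and 6.07 ± 2.02 in SVCD, not well above background on either array, so the difference rests on 1 probe. With the mean over both Notch1 probes, the log2 difference was 1.43.

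Notch4, a receptor known chiefly from endothelium, read 2149.8 ± 215 in SPAD and 597 ± 59.8 in SVCD. It was 3.93-fold higher in SPAD (1.97 ± 0.08), and 5.62% of genes exceeded this difference. Notch3, the receptor of pericytes and vascular smooth muscle, read 626 ± 62.7 in SPAD and 158 ± 16.0 in SVCD, a log2 difference of 2.11 ± 0.12. These receptors thus had their higher signal on the same array as Notch1. With spike-in scaling the log2 differences of Notch1, Notch3 and Notch4 were 1.71, 1.14 and 1.00, and the last of these lies at the 2-fold limit.

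Notch2, a broadly expressed receptor, was the exception among the receptors in the size of its difference. Its brighter probe read 2663 ± 266 in SPAD and 1602 ± 160.2 in SVCD, and its dimmer probe 67.6 ± 7.57 in SPAD and 38.1 ± 4.64 in SVCD. Both probes were brighter in SPAD, by 0.86 ± 0.08 and 0.95 ± 0.38 on the log2 scale, short of 2-fold, and with spike-in scaling the brighter probe was at -0.11. Relative to Notch2, Notch1 differed by 1.82 ± 0.12 log2 units more, Notch3 by 1.25 ± 0.14 and Notch4 by 1.11 ± 0.12. Such comparisons between genes do not depend on a common scaling factor, although that of Notch1 was 0.52 with the mean over probes.

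**Figure D2:**
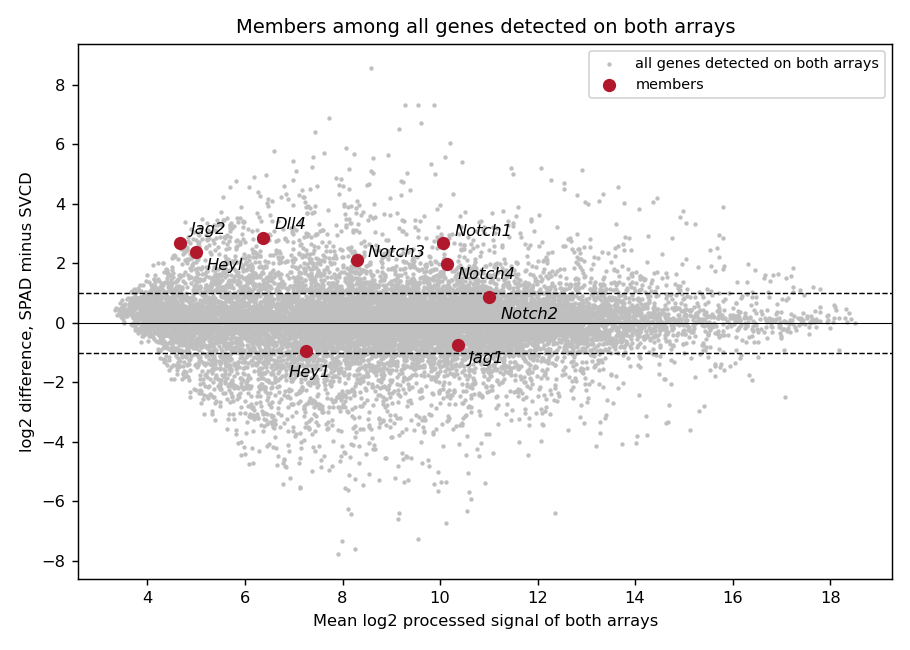
Log2 difference between SPAD and SVCD against the mean log2 processed signal of both arrays, for genes detected on both (grey) and for the 9 detected Notch receptors, ligands and Hey targets (red); dashed lines mark 2-fold. The 6 genes past 2-fold lie between 1.97 and 2.85 across a wide range of signals, while Notch2, Jag1 and Hey1 lie between the dashed lines.

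The ligands differed in opposite directions. Dll4, the Delta ligand of sprouting and arterial endothelium, read 214 ± 21.5 in SPAD and 32.4 ± 3.79 in SVCD. This was the largest difference among the 9 detected genes, 7.20-fold higher in SPAD (2.85 ± 0.37), and 2.41% of all genes exceeded it. Jag2, a Jagged ligand, read 62.0 ± 6.57 in SPAD and 10.5 ± 2.05 in SVCD. It was 6.46-fold higher in SPAD (2.69 ± 0.38), but its SVCD signal lay just above 8.60, the lowest signal called well above background on that array.

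Jag1, the Jagged ligand widely expressed in vessel walls and stromal cells, read 968 ± 96.9 in SPAD and 1783 ± 178 in SVCD. It was 1.69-fold lower in SPAD (-0.76 ± 0.08), a size that 18.3% of genes exceeded in that direction. The difference was larger than the spot error but short of 2-fold, and it was -1.73 with spike-in scaling. Relative to Jag1, Dll4 differed by 3.60 ± 0.38 log2 units more (12.2-fold) and Jag2 by 3.45 ± 0.38.

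Dll1, a Delta ligand best known from the embryo and from lymphoid tissue, had a probe that was printed 10 times on each array. Its signals ran from 4.91 to 12.2 in SPAD, with a median of 8.10, and from 2.25 to 7.40 in SVCD, with a median of 3.64. None of the 10 spots was well above background on either array, so no fold is given and Dll1 was not detectable at this signal.

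The Hey targets also parted. Heyl, a Hey gene known as a target of Notch3 in vascular smooth muscle, read 69.5 ± 7.60 in SPAD and 14.7 ± 2.83 in SVCD. It was 5.17-fold higher in SPAD (2.37 ± 0.38), and 3.83% of genes exceeded this difference. Hey1, a target gene of endothelial Notch signalling, read 105 ± 10.9 in SPAD and 222 ± 22.4 in SVCD. It was 1.94-fold lower in SPAD (-0.96 ± 0.13), just inside the 2-fold limit, and -1.93 with spike-in scaling. Relative to Hey1, Heyl differed by 3.33 ± 0.40 log2 units more (10.04-fold).

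Background correction moved Jag2, Heyl and Dll4 the most. With the normexp correction, which adds 50 to each signal and so draws dim signals together, Heyl was at 0.84, short of 2-fold, and Jag2 at 1.02. Under the same correction Dll4 was at 1.67 and the brighter Notch1, Notch3 and Notch4 at 2.53, 1.78 and 1.79. The excess of Dll4 over Jag1 was then 2.32 log2 units, that of Jag2 over Jag1 1.67 and that of Heyl over Hey1 1.45. The authors' deposited table of log2 values gave 2.68 for Notch1, 2.85 for Dll4, 2.37 for Heyl and -0.96 for Hey1. That table holds the same arrays at nearly the same scaling, so it is no independent check.

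**Figure D3:**
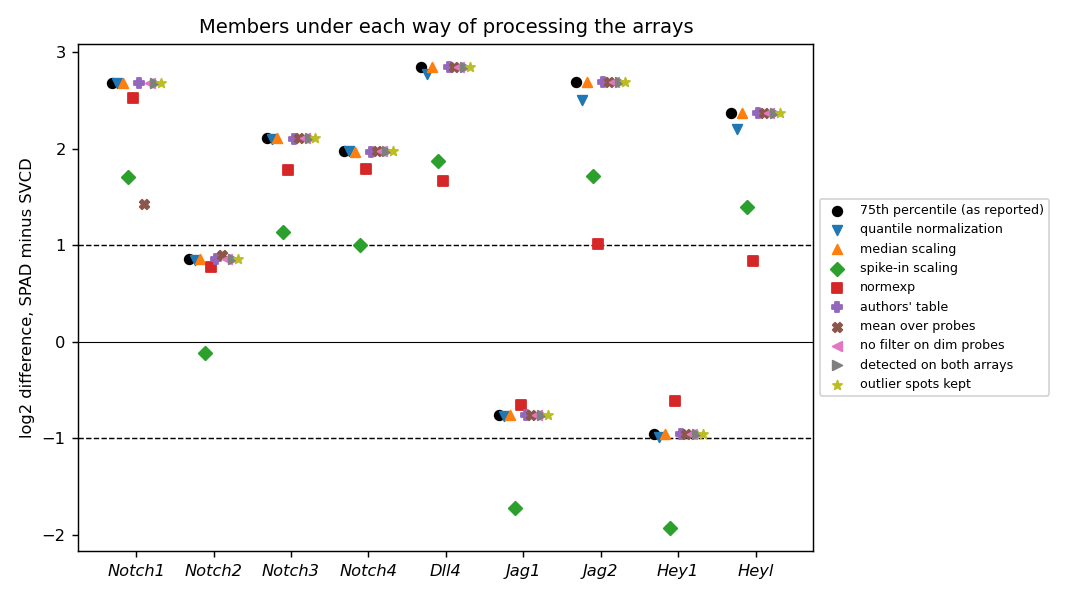
Log2 difference between SPAD and SVCD of the 9 detected genes as reported (black) and under 9 other ways of processing the arrays (colours); dashed lines mark 2-fold. Spike-in scaling (green diamonds) moves each gene by -0.97 and places Notch2 at -0.11, and normexp (red squares) places Heyl at 0.84.

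The rest of the pathway was set beside these genes through 51 further genes grouped by role, of which 48 were on the arrays and 45 detected. At least 2-fold higher in SPAD were 4 of the 45 (8.89%, beside 16.3% of all genes), and at least 2-fold lower were 5 (11.1%, beside 14.1%). Their median log2 difference was -0.08, with 25 below 0 and 20 above, and -1.05 with spike-in scaling, beside medians of 0.06 and -0.90 for all genes. Their shares past 2-fold were thus below those of all genes in both directions with this scaling, with 36 of the 45 within 2-fold. With spike-in scaling the share at least 2-fold lower was 55.6% (25 of 45), above the 44.8% of all genes, and the share at least 2-fold higher was 4.44%, beside 5.64%.

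Among ligand-like proteins, Egfl7, a factor secreted by endothelial cells that can bind Notch receptors, read 16277 in SPAD and 2661 in SVCD (2.74 ± 0.08). Dlk1, the preadipocyte protein related to Delta, was 2.56-fold lower in SPAD on its brighter probe, with 53.1 in SPAD and 148 in SVCD. Dner, a Delta-like membrane protein known from neurons, was 2.85-fold lower, with 45.1 in SPAD and 139.9 in SVCD. Dll3, a divergent Delta protein, differed by 0.44 ± 0.13, but its other probe was detected in SPAD alone and was at least 4.26-fold higher there. Past 2-fold in this group were thus Egfl7 on the SPAD side and Dlk1 and Dner on the SVCD side, among 4 detected genes.

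Sugar-adding enzymes tune how well Notch receptors respond to each ligand. Lfng, the Fringe enzyme known to favour Delta over Jagged ligands, read 6.71 in SPAD, not well above background, and 221 in SVCD. It was at least 18.7-fold lower in SPAD, whereas the other Fringe genes Mfng and Rfng differed by -0.05 ± 0.08 and -0.69 ± 0.08. Pofut1 and Poglut1, which add the first sugars to Notch, differed by -0.08 ± 0.08 and -0.44 ± 0.09. As reported, Lfng was the only gene of the 5 in this group past 2-fold (20%, beside 14.1% of all genes on the SVCD side). The shift of -0.97 with spike-in scaling would place all 5 past 2-fold on that side, beside 44.8% of all genes.

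As reported, the machinery that processes ligands and receptors lay within 2-fold throughout. The 4 detected ubiquitin ligases that act on ligands ran from -0.22 to 0.78, with Neurl1b at 0.28, Mib2 at 0.75 and Mib1 at 0.78. The 8 detected proteases ran from -0.63 to 0.79, with Adam10, which makes the first cut after ligand binding, at -0.17 ± 0.08 and the gamma-secretase subunit gene Psenen at 0.15 ± 0.08. Psen2, a catalytic subunit of gamma-secretase, was at -0.63 and Aph1a at 0.79, although another Aph1a probe was at -0.26. The shift of -0.97 with spike-in scaling would place genes such as Adam10 and Psen2 past 2-fold on the SVCD side. Others such as Psenen and Mib1 would stay within 2-fold.

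Rbpj, the DNA-binding partner of cut Notch, read 1038 in SPAD and 1644 in SVCD (-0.54 ± 0.08). Among its coactivators, Maml1 differed by 0.81 ± 0.08, and Maml2 was 3.34-fold lower in SPAD, with 50.1 in SPAD and 182 in SVCD. Maml3 differed by -0.42 ± 0.35. The 3 corepressor genes ran from -0.39 (Hdac1) to 0.61 (Spen). Of the 7 genes of the nuclear complex, Maml2 was thus the only one past 2-fold as reported. This share of 14.3% stood beside 14.1% of all genes on the SVCD side. The shift of -0.97 with spike-in scaling would also place Rbpj, Maml3 and Snw1 of this complex past 2-fold there. Maml1, Ep300 and Kat2b would stay within 2-fold, and 44.8% of all genes were then past it on the SVCD side.

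Of 8 detected genes of Notch turnover, 2 were at least 2-fold higher in SPAD (25%, beside 16.3% of all genes). At least 2-fold lower was 1 (12.5%, beside 14.1%). Numbl, a relative of the Notch antagonist Numb, read 3978 in SPAD and 1105 in SVCD (3.93-fold higher in SPAD), and Dtx2, a Deltex ubiquitin ligase, was 2.14-fold higher. Dtx3l, another Deltex protein, was 2.02-fold lower (-1.01 ± 0.09), just past the limit. Numb differed by -0.40 ± 0.11 and Fbxw7, which marks cut Notch for degradation, by -0.03 ± 0.09. Dtx4 was 1.90-fold lower (-0.92 ± 0.08), and Dtx1 was below the detection call on both arrays. The shift of -0.97 with spike-in scaling would place Dtx2 within 2-fold and leave Numbl at the limit. It would place Numb, Itch, Dtx3, Dtx3l and Dtx4 past 2-fold on the SVCD side, with Fbxw7 at the limit, beside 44.8% of all genes.

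Of the other Hes, Hey and Nrarp genes, 1 of 6 detected, Hes3, was past 2-fold (16.7%, beside 16.3% of all genes on the SPAD side). Hes3 read 16.6 in SPAD and 6.58 in SVCD, where it was not well above background (at least 2.11-fold higher in SPAD). Hes1, a Notch target in many tissues, read 58.6 in SPAD and 98.0 in SVCD (-0.62 ± 0.13). Hes5, another classical target, was detected in SPAD alone and at least 1.74-fold higher. Its signal of 13.7 ± 2.96 in SPAD lay near 10.8, the lowest detected there, and it read 5.84 in SVCD. Hey2 and Nrarp, known as endothelial Notch targets, were not well above background on either array. Hes6 and Hes7 differed by -0.42 ± 0.08 and 0.07 ± 0.09. Among targets detected in both populations, Heyl was thus past 2-fold on the SPAD side, while Hes1 and Hey1 were brighter in SVCD but within 2-fold. The shift of -0.97 with spike-in scaling would place Hes1, Hes2, Hes6 and Hey1 past 2-fold on the SVCD side, beside 44.8% of all genes. Hes3 would then lie within 2-fold.

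**Figure D4:**
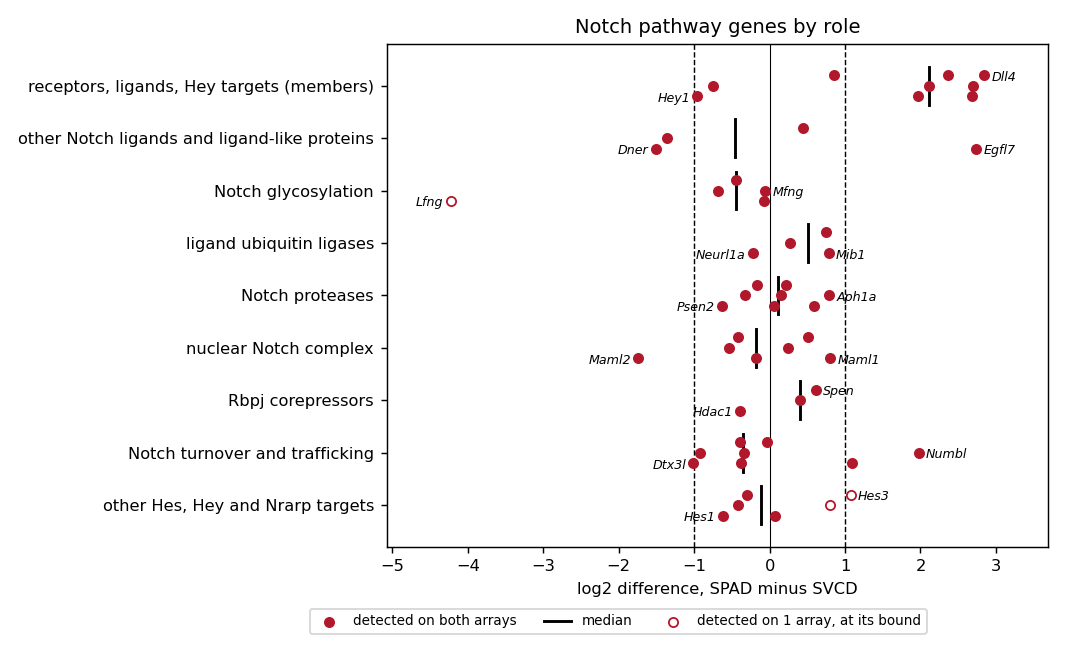
Log2 difference between SPAD and SVCD for detected genes of the Notch pathway, by role; each point is a gene (open where it was detected on 1 array and stands at its bound), bars are medians, and dashed lines mark 2-fold. The median of the receptors, ligands and Hey targets is 2.11, and those of the other groups lie between -0.46 and 0.51.

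Markers of the cells that such cultures can hold moved between the arrays as well. Of 18 endothelial markers, all detected, 13 exceeded 2-fold on the SPAD side and 2 on the SVCD side (Nos3 and Sox18), with a median of 2.02. Spike-in scaling gave 10 on the SPAD side, 4 on the SVCD side and a median of 1.05, and normexp gave 0 on the SVCD side. Sox17, a transcription factor of arterial endothelium, was 13.3-fold higher, and Cdh5, the cadherin of endothelial junctions, read 3297 in SPAD and 451 in SVCD. The summed signal of this list was 29719 in SPAD and 10139.6 in SVCD, and 0 of its genes fell below background on either array. Of the 18 genes, 14 were brighter in SPAD, as were Notch1, Notch4 and Dll4, and 4 in SVCD. Besides Nos3 and Sox18, the genes brighter in SVCD were Vwf, the von Willebrand factor (-0.92 ± 0.08), and Kdr (-0.49 ± 0.08). Kdr, a receptor for vascular endothelial growth factor, differed by -1.94 ± 0.03 on a dimmer probe printed 10 times. The part of endothelial cells in the differences of the Notch genes was not tested.

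Pericyte markers had a median of 0.56, or -0.41 with spike-in scaling, with 3 of 9 detected past 2-fold on the SPAD side and 2 on the SVCD side. Rgs5 was 7.19-fold and Ndufa4l2 5.65-fold higher in SPAD, Abcc9 2.01-fold higher, Anpep 6.51-fold lower and Cspg4 2.66-fold lower. Of the 9, 7 were brighter in SPAD and 2 in SVCD, and Kcnj8 was below background on both arrays. Their summed signal was 44346 in SPAD and 65843 in SVCD. Most of it came from Mcam (35324 in SPAD and 32092 in SVCD) and Anpep (4518 in SPAD and 32081 in SVCD). Smooth muscle markers had a median of -3.57, with 6 of 9 past 2-fold on the SVCD side, and a summed signal of 17166 in SPAD and 217842 in SVCD. Cnn1, an actin-binding protein of smooth muscle, was 40.7-fold lower, while Myh11, its defining myosin, differed by 0.55 ± 0.12. Notch3 and Heyl, known from these cell types, were thus higher on the array where 7 of 9 detected pericyte markers were brighter and most smooth muscle markers were dimmer. The part of these cells was not tested.

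Of 11 detected macrophage markers, 8 exceeded 2-fold on the SVCD side. Their median was -3.19, with a summed signal of 130657 in SPAD and 313203 in SVCD. Most of the sum in SPAD came from Lyz2, which read 98429 in SPAD and 84459 in SVCD. Lyz2 (0.35 ± 0.08) and Cd14 (0.11 ± 0.08) were the 2 markers brighter in SPAD, and 9 were brighter in SVCD. Csf1r, the growth factor receptor on which macrophages depend, read 3185 in SPAD and 58410.2 in SVCD. All 9 detected adipocyte markers exceeded 2-fold on the SPAD side, with a median of 2.97. With spike-in scaling 6 of the 9 did so (median 2.00), and with normexp 8 (median 1.95). Both arrays had signal for Adipoq (336 in SPAD and 22.7 in SVCD) and Fabp4, whereas Lep was below background on both. The 9 detected adipocyte markers were thus brighter in SPAD on their brightest probes, although a dimmer Cidec probe differed by -0.004 ± 0.50. The share of adipocytes in SPAD was not measured, and the RNA of both populations also held endothelial and macrophage transcripts.

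**Figure D5:**
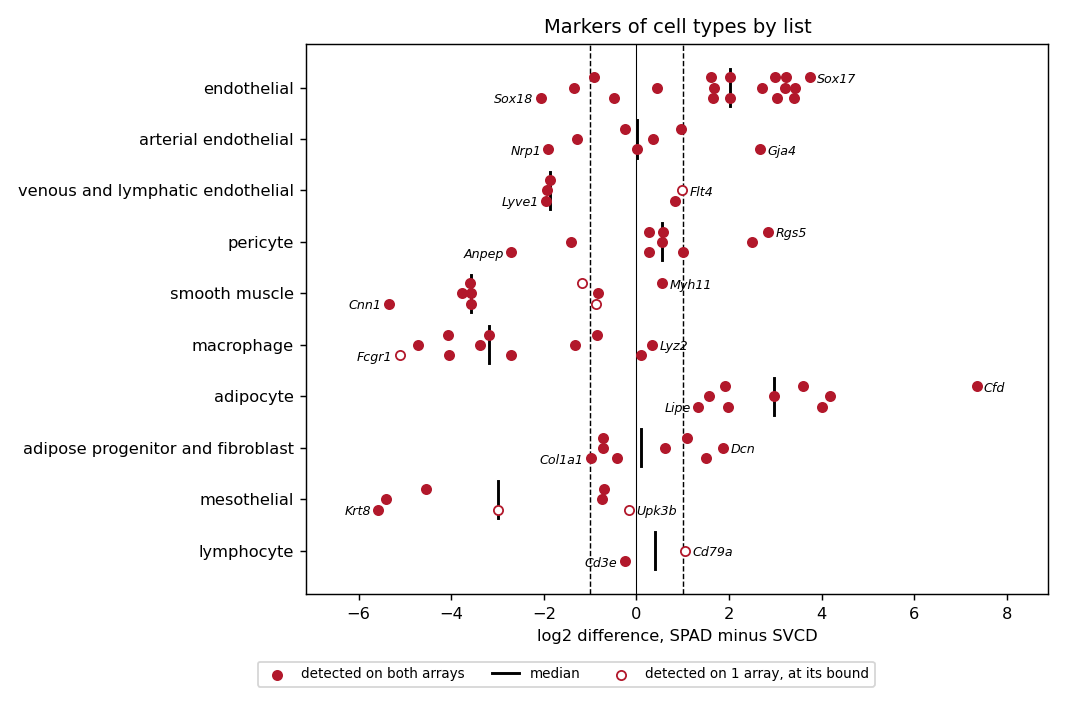
Log2 difference between SPAD and SVCD for detected markers of 10 cell types; each point is a gene (open where it was detected on 1 array and stands at its bound), bars are medians, and dashed lines mark 2-fold. Endothelial and adipocyte medians lie at 2.02 and 2.97, and those of smooth muscle and macrophages at -3.57 and -3.19.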

How the data were processed

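Gene expression was measured on 1 single-colour (Cy3) Agilent array per population, each from 30 ng of RNA, per the labels. Per the file headers, the deposited values are processed intensity on a linear scale, already corrected for background. The submitters' processing notes name Agilent Feature Extraction, version 10.7.3.1. A table of the authors' log2 values was also deposited, in which each probe had been centred over both arrays. Its column medians were 0.16 in SPAD and -0.16 in SVCD, and its scaling is not stated. The difference of its columns ran the same way as the scanner values, shifted by 0.12.

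From the 44397 spots of an array, 1377 controls were left out, as were 73 outlier spots in SPAD and 85 in SVCD. Repeat spots were averaged on the log2 scale and each array was scaled to its 75th percentile (an intensity of 622 in SPAD and 678 in SVCD). Probes were named by RefSeq transcript, without versions, from a gene table of GRCm38.p6, used for names only since the array design follows another build (mm9). This named 27506 of 39425 probes (69.8%). A gene was represented by its brightest probe and every probe of the 10 genes described is given. Genes detected on 1 array are given as "at least N-fold", against the higher of the dim signal and the lowest detected signal of that array (10.8 in SPAD and 8.60 in SVCD), from 1 array a group. Probes on other gene copies were not checked.

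Differences were counted by size and none was tested, since each group has 1 array. The spot error comes from 295 probes in SPAD and 296 in SVCD printed 10 times, in 6 bins of signal. Intensities carry no read depth, and the number of arrays limits the precision. The calculation was tested on simulated data. The genes, lists and comparisons were chosen with earlier results of these data known. A gene of 1 list is not reported here and was left out of its counts. Genes named outside the 10 are those past 2-fold (at most 6 a list) and, by group, examples within 2-fold. Some examples were picked for their role after their values were seen. limma 3.58.1 (R 4.3.3), numpy 2.4.6 and pandas 2.3.3 were used. The alternatives were quantile, median and spike-in scaling, normexp, the authors' table, the mean over probes, no filter on dim probes, genes detected on both arrays, and outlier spots kept. Normexp used the median spot signal, since the files hold no mean signal.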

Additional observations from a re-analysis of the deposited data

How the results depend on the processing

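No paired analysis was possible because each group has 1 array. Leaving out a replicate was not possible for the same reason. Across the 9 alternatives, the count of Notch receptors, ligands and Hey targets at least 2-fold higher in SPAD was 5 with normexp, 7 without a filter on dim probes, where Dll1 was counted from signals below background, and 6 in the others. Spike-in scaling gave 2 of them at least 2-fold lower, against 0 as reported, and a median of 1.14. Normexp gave a median of 1.02, against 2.11, because its offset of 50 draws dim signals together. For the other Notch pathway genes, spike-in scaling gave 2 at least 2-fold higher, 25 at least 2-fold lower and a median of -1.05, through the constant shift of -0.97. The lower share (55.6%) was then above that of all genes (44.8%), whereas it was below it as reported. Normexp gave 1 at least 2-fold lower, against 5, and no filter on dim probes gave 7 at least 2-fold higher, against 4. Of the 9 detected genes, 8 kept their direction under all 9 alternatives, and Notch2 turned to -0.11 with spike-in scaling. Median scaling, the authors' table, no filter on dim probes, detection on both arrays and outlier spots kept left these 9 values practically unchanged. The mean over probes could change Notch1 and Notch2 alone. The kept direction under those alternatives is thus no separate check. Heyl (with normexp), Jag1 and Hey1 (both with spike-in scaling) changed their side of the 2-fold limit. The spike-ins number 8 probes, and whether they or the 75th percentile fit the RNA amounts better was not tested. Signals near background limit Jag2, Heyl, Dll1 and the dim Notch targets.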

Other observations

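Markers that tell arteries from veins did not move as a block. Of 7 arterial markers, Gja4, a connexin of arterial endothelium, was 6.39-fold higher in SPAD, whereas Nrp1, a coreceptor for vascular endothelial growth factor, was 3.74-fold lower and the connexin gene Gja5 2.42-fold lower. Efnb2, the arterial ephrin, was 1.94-fold higher, with a log2 difference of 0.96 ± 0.08 that was just inside 2-fold. The median of this list was 0.02, and -0.95 with spike-in scaling. Of 5 detected venous and lymphatic markers, 3 were at least 2-fold lower in SPAD (Lyve1 3.86-fold, Ephb4 3.79-fold and Nrp2 3.65-fold) and the list's median was -1.87, between -2.84 with spike-in scaling and -0.70 without a filter on dim probes. The other detected members, Nr2f2 (1.79-fold) and Flt4 (at least 1.98-fold), were higher in SPAD. Lyve1 is also made by some macrophages.

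Of 7 mesothelial markers, 4 exceeded 2-fold on the SVCD side (median -2.99, between -4.56 with the authors' deposited table and -1.22 with normexp), and 7 did with spike-in scaling. The 4 included the keratin genes Krt8 (47.7-fold) and Krt18 (42.7-fold). Adipose progenitor and fibroblast markers had 3 of 8 detected genes past 2-fold on the SPAD side, Dcn (3.65-fold), Pi16 (2.84-fold) and Ly6a (2.13-fold), and 0 on the SVCD side. Their median was 0.09. With spike-in scaling 0 were past 2-fold on the SPAD side and 4 on the SVCD side, with a median of -0.88, and with normexp 1 was past it on the SPAD side. Of the 5 lymphocyte markers, 2 were detected: Cd3e differed by -0.26 ± 0.08 and Cd79a was at least 2.08-fold higher in SPAD at a signal of 16.4 in SPAD, against 7.64 in SVCD. The median of these 2 was 0.40, and -0.57 with spike-in scaling, and Cd79a was not past 2-fold with spike-in scaling or normexp.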
